A study of Mus musculus with 4 samples.

Results

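Myc and its partner network were examined in RNA of the mouse hybridoma 36-65, of which 4 subclones were measured. A hybridoma is a fusion of an antibody-producing B cell with a myeloma line, and it secretes antibody in culture. The network was taken as 10 genes, namely Myc, Mycn, Max, Mxd1, Mxd3, Mxd4, Mxi1, Mnt, Mlx and Pvt1, and every probe set whose platform gene symbol was one of them was kept. This gave 26 probe sets of the 45037 tested, and 10 of 18194 named genes. The high switching class holds the subclones H23 (replicate 1) and H27 (replicate 2), which change antibody isotype often and spontaneously in culture. The low switching class holds L25 (replicate 1) and L27 (replicate 2), which do so rarely. No drug, cytokine or engineered allele is named for any of them, and all were grown with 10% fetal calf serum. Each subclone is 1 clone of the same line, measured once as total RNA on 1 Affymetrix array.

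Myc is a transcription factor that binds DNA as a dimer with Max, mostly at the E-box sequence CACGTG, and raises transcription of genes for growth, ribosome assembly and nucleotide synthesis. The Mxd proteins, Mxi1 and Mnt compete for Max and recruit repressors to the same sites, and Mlx is the Max-like partner of a parallel branch that responds to glucose. In mouse plasmacytomas, the tumours from which the myeloma partners of hybridomas derive, Myc is typically joined to an immunoglobulin locus by translocation, and Pvt1, the long noncoding gene next to it, is the site of variant breakpoints. The sources used here do not say which rearrangement, if any, the 36-65 line carries.

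The E-box that the network binds also lies in promoters of the network itself, and the windows below show it in capitals. Promoters of 250 bases before and 50 after the start were taken from RefSeq (GRCm38.p6) and searched for CACGTG, which reads the same on both strands. Of the 10 members, 8 had an entry, and 4 of these 8 genes held the motif, against 8.09% of 27025 genes with an entry. Relative to the annotated start, its first base lies at -3 in Max, -219 in Mxd4, -123 in Mnt and -40 in Mlx.
Max (chr12:76962234-76962263, minus strand): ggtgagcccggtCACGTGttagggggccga
Mxd4 (chr5:34187912-34187941, minus strand): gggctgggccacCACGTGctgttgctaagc
Mnt (chr11:74830789-74830818, plus strand): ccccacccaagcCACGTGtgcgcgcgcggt
Mlx (chr11:101087238-101087267, plus strand): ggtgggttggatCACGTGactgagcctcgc
The motif was not found in the windows of Mycn, Mxd1, Mxd3 and Mxi1. A match is a description of these letters, not of binding in these cells.

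The 4 arrays had median intensities between 38.1 and 39.3, which is 5.25 to 5.30 on the log2 scale. Their number limits the precision of every value below, and nothing in the labels says that the subclones of a class arose separately, so the p-values may reflect only how these 4 cultures vary. In RNA from whole cultures, fewer cells of a type and less RNA per cell cannot be told apart. Plasma cell genes were bright on all arrays, with Jchain between 14.35 and 14.49 and Sdc1 between 12.44 and 12.66 (log2 intensity). Cd79a, a B cell receptor subunit, lay at 5.04 to 5.25, no higher than the median probe set of any array. The summed intensities of 8 T cell markers were 1106 and 1315 in high and 1371 and 1443 in low switching subclones, and those of 8 myeloid markers were 1672 and 1527 in high and 1283 and 1446 in low switching subclones. The sums of 4 erythroid markers were 201 and 198 in high and 170 and 182 in low switching subclones, and those of 8 fibroblast markers 258 and 252 in high and 213 and 199 in low switching subclones. The macrophage gene Cd68 had 10.35 and 10.17 in H23 and H27, against 9.58 and 9.86 in L25 and L27. The sums of 8 B and plasma cell markers were 43111 and 47287 in high and 44738 and 46825 in low switching subclones. Among them Cd79b, another B cell receptor subunit, rose (0.77, adjusted p = 0.0238) and the plasma cell receptor Tnfrsf17 fell (-0.71, adjusted p = 0.0454). Of the markers of other cells, the myeloid integrin Itgam fell (-1.38) and the fibroblast gene Lum rose (1.21). The part of these markers in any result was not tested.

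High switching subclones were then set against low switching ones for each probe set of the network. None of the 26 probe sets passed limma at an adjusted p under 0.05 (Benjamini-Hochberg over all 45037 probe sets), against 3.59% of all probe sets (1.50% higher and 2.10% lower in high switching subclones). At an unadjusted p under 0.05 there were 6 of 26, a share of 23.1% against 18.6% of all probe sets. The network was brighter than most, with a median level of 7.68 against 5.28 over all probe sets. Among all probe sets with a mean of at least 7, 7.21% passed limma, and 5146 of 14489 had an unadjusted p under 0.05. Some of the 26 lie below that level, 5 of them with a mean under 6, so comparisons with these brighter probe sets are not matched for level. The log2 differences, high minus low, lay between -0.47 and 0.42, and each of the 26 intervals at 95% lay within a 2-fold difference either way. The 2 classes did not overlap for 10 of 26 probe sets, 7 higher and 3 lower in high switching subclones, which is 38.5% against 47.3% of all probe sets (25.1% higher, 22.2% lower). They overlapped for 16 of 26, and for 5293 of the 14489 probe sets with a mean of at least 7. The median difference was 0.02, against 0.01 over all probe sets. The median size of the difference, whatever its sign, was 0.10, against 0.13 over all probe sets and 0.23 over those with a mean of at least 7.

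**Figure D1:**
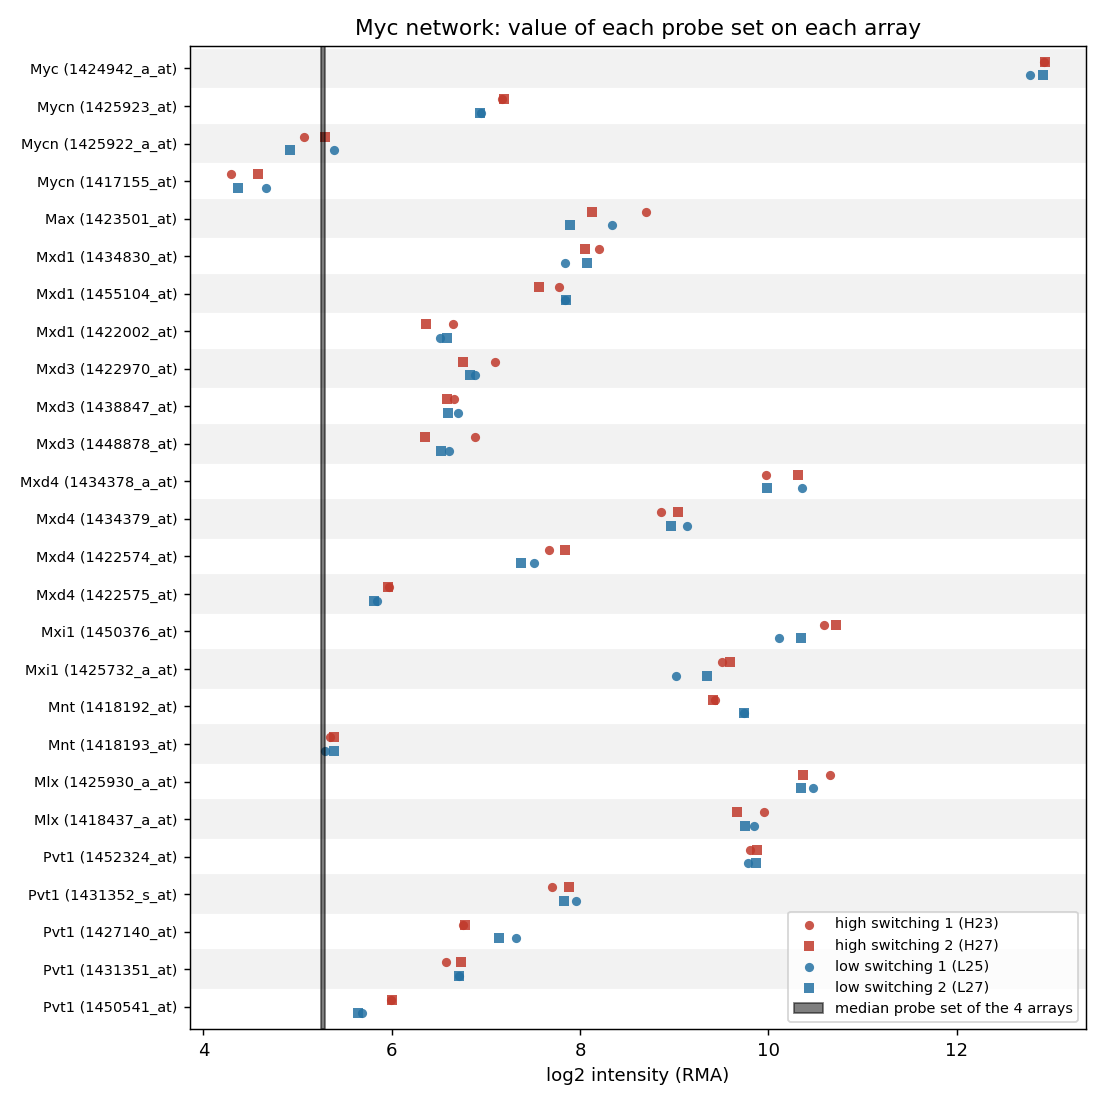
Log2 intensity (x axis) of each of the 26 probe sets of the network (rows, by gene) on each of the 4 arrays. Red points are the high switching subclones H23 (circle) and H27 (square), blue points the low switching subclones L25 (circle) and L27 (square), and the dark band marks the median probe set of the arrays; Myc sits at 12.78 to 12.93 on all 4, and 5 of 26 probe sets have a mean under 6.

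Myc itself was expressed at nearly the same level in all 4 subclones. Its probe set (1424942_a_at) read 12.93 in H23 and 12.93 in H27, against 12.78 in L25 and 12.92 in L27. The high switching arrays were both above the low switching arrays, but L27 lay closer to them than to L25. The mean was 12.93 ± 0.00 in high and 12.85 ± 0.10 in low switching subclones (SD, n = 2 each), a difference of 0.08 ± 0.11 (SE) with an adjusted p of 0.784. The interval of the fold, high over low, ran from 0.879 to 1.28. On the scale of the arrays, 98.9% of probe sets had a lower mean.

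Mycn, a Myc paralog of embryonic and neural cells, was read by 3 probe sets. Only 1425923_at lay clearly above the median probe set, with 7.17 and 7.20 in H23 and H27, against 6.95 and 6.93 in L25 and L27. The classes did not overlap there, and the difference of 0.24 ± 0.10 had an adjusted p of 0.287. The other Mycn probe sets averaged 5.18 ± 0.16 and 4.44 ± 0.21 in high and 5.15 ± 0.33 and 4.52 ± 0.22 in low switching subclones, near or below the median probe set, and their classes overlapped.

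Max, the shared partner that Myc needs to bind DNA, differed more within the classes than most probe sets did. It read 8.70 in H23 and 8.13 in H27, against 8.34 in L25 and 7.89 in L27. The first subclone of each class was the higher one, and the classes overlapped. The class difference was 0.30 ± 0.23 (adjusted p = 0.592), with an interval from -0.27 to 0.86, the widest of the network. The gap between the high switching subclones was 0.57, reached by 2.66% of all probe sets in that pair, and the gap between the low switching subclones was 0.45, reached by 5.38%. When H27 was left out the difference was 0.58, and when H23 was left out it was 0.01.

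Mxi1, a Max partner that opposes Myc, had the largest positive difference of the network. Its 1450376_at probe set read 10.58 in H23 and 10.72 in H27, against 10.11 in L25 and 10.35 in L27. Its 1425732_a_at probe set read 9.51 and 9.59 in H23 and H27, against 9.02 and 9.35 in L25 and L27. On both, each high switching subclone lay above each low switching subclone. The differences of 0.42 ± 0.13 and 0.37 ± 0.14 correspond to 1.34-fold and 1.29-fold higher levels, and did not pass (adjusted p = 0.151 and 0.238).

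Mnt, a broadly expressed Max-binding repressor, had a difference of the opposite sign. Its 1418192_at probe set read 9.43 in H23 and 9.41 in H27, against 9.74 in both L25 and L27. The subclones of a class were almost equal and the classes did not overlap. The difference was -0.31 ± 0.10, a level 1.24-fold higher in low switching subclones, with an adjusted p of 0.176. The second Mnt probe set, at 5.36 ± 0.03 in high and 5.34 ± 0.07 in low switching subclones, lay at the level of the median probe set, with a difference of 0.03.

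The 3 Mxd genes encode repressors that rise when cells stop dividing and differentiate, apart from Mxd3, which is expressed in cycling cells. For Mxd1, the probe sets gave differences of 0.17 ± 0.13, -0.18 ± 0.12 and -0.05 ± 0.13, without a shared sign. For Mxd3 they were 0.06 ± 0.14, -0.02 ± 0.11 and 0.05 ± 0.18. On 1448878_at, Mxd3 read 6.89 in H23 and 6.36 in H27, against 6.61 in L25 and 6.53 in L27, so that the high switching subclones enclosed the low switching ones.

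Mxd4 was read by 4 probe sets, whose differences had both signs. On 1434378_a_at it read 9.98 in H23 and 10.31 in H27, against 10.36 in L25 and 9.98 in L27. The higher values came from 1 subclone of each class, and the difference was -0.03 ± 0.18 (adjusted p = 0.971). On 1422574_at it read 7.67 and 7.84 in H23 and H27, against 7.52 and 7.37 in L25 and L27. The classes did not overlap on this probe set, and its difference of 0.31 ± 0.12 had an adjusted p of 0.243. The remaining Mxd4 probe sets had differences of -0.10 ± 0.13 and 0.14 ± 0.10.

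The split seen for Mxd4 on 1434378_a_at followed the level of the hybridization controls, transcripts added to each sample before it is put on the array. These averaged 10.79 in H23 and 11.23 in H27, against 11.32 in L25 and 10.72 in L27 (log2 intensity). On the arrays with higher controls, Mxd4 (1434378_a_at) was higher by 0.35, a gap reached by 4.48% of all probe sets. Mycn (1425922_a_at) was higher by 0.34, reached by 4.98%. Of the other Mxd4 probe sets, 1434379_at was separated as well (higher by 0.18), while 1422574_at and 1422575_at were not. The controls separated 8 of 26 probe sets of the network, or 30.8%, against 27.5% of all probe sets. With their level as a block, no probe set of the network passed, and the high minus low differences were unchanged, since each level holds 1 array of each class. The gap of Max between subclones did not follow them.

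**Figure D2:**
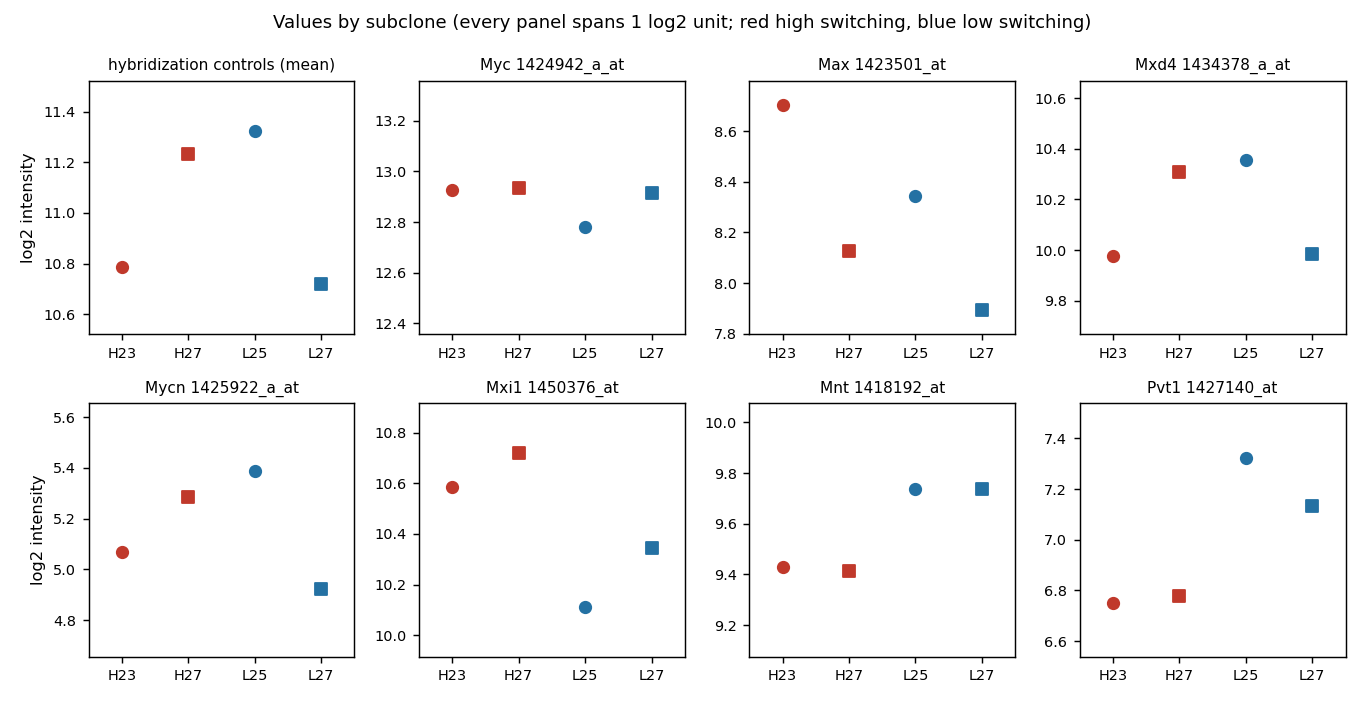
Log2 intensity (y axis, 1 log2 unit in every panel) by subclone for the mean of the hybridization controls and for probe sets of Myc, Max, Mxd4, Mycn, Mxi1, Mnt and Pvt1. Red points are high switching subclones and blue points low switching subclones; Mxd4 and Mycn 1425922_a_at are high in H27 and L25, as the controls are, while Mnt is at 9.43 and 9.41 in red against 9.74 in blue.

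Mlx, the partner of the glucose-sensing Mondo proteins, did not differ beyond its spread. Its probe sets had means of 10.51 ± 0.21 and 9.81 ± 0.21 in high switching subclones, against 10.41 ± 0.09 and 9.80 ± 0.07 in low switching subclones. The differences were 0.10 ± 0.14 and 0.01 ± 0.14, and on both probe sets H23 read above H27, by 0.294 and 0.295.

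Pvt1 was read by 5 probe sets, whose differences ran in both directions. On 1452324_at it read 9.80 in H23 and 9.88 in H27, against 9.78 in L25 and 9.86 in L27. The classes overlapped there, and the difference was 0.02 ± 0.11. On 1427140_at it read 6.75 and 6.78 in H23 and H27, against 7.32 and 7.14 in L25 and L27. This difference of -0.47 ± 0.12 was the largest of the network in size and had its smallest adjusted p (0.0982), which does not pass. On 1450541_at it read 5.99 and 6.01 in H23 and H27, against 5.68 and 5.65 in L25 and L27, a difference of 0.33 ± 0.10 (adjusted p = 0.158). This probe set has a mean under 6, though 57.2% of all probe sets had a lower mean. The other 2 probe sets gave -0.10 ± 0.12 and -0.05 ± 0.11. Pvt1 has many isoforms, and the part of the transcript that each probe set reads was not looked up here.

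Across the network, 2 of the 8 genes with several probe sets had differences of 1 sign throughout, Mxi1 and Mlx. The 6 probe sets whose 95% interval left out 0 were both of Mxi1, 1422574_at of Mxd4 and 1450541_at of Pvt1 (above 0), and 1418192_at of Mnt and 1427140_at of Pvt1 (below 0). Adjusted over the whole table, none of them passed.

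**Figure D3:**
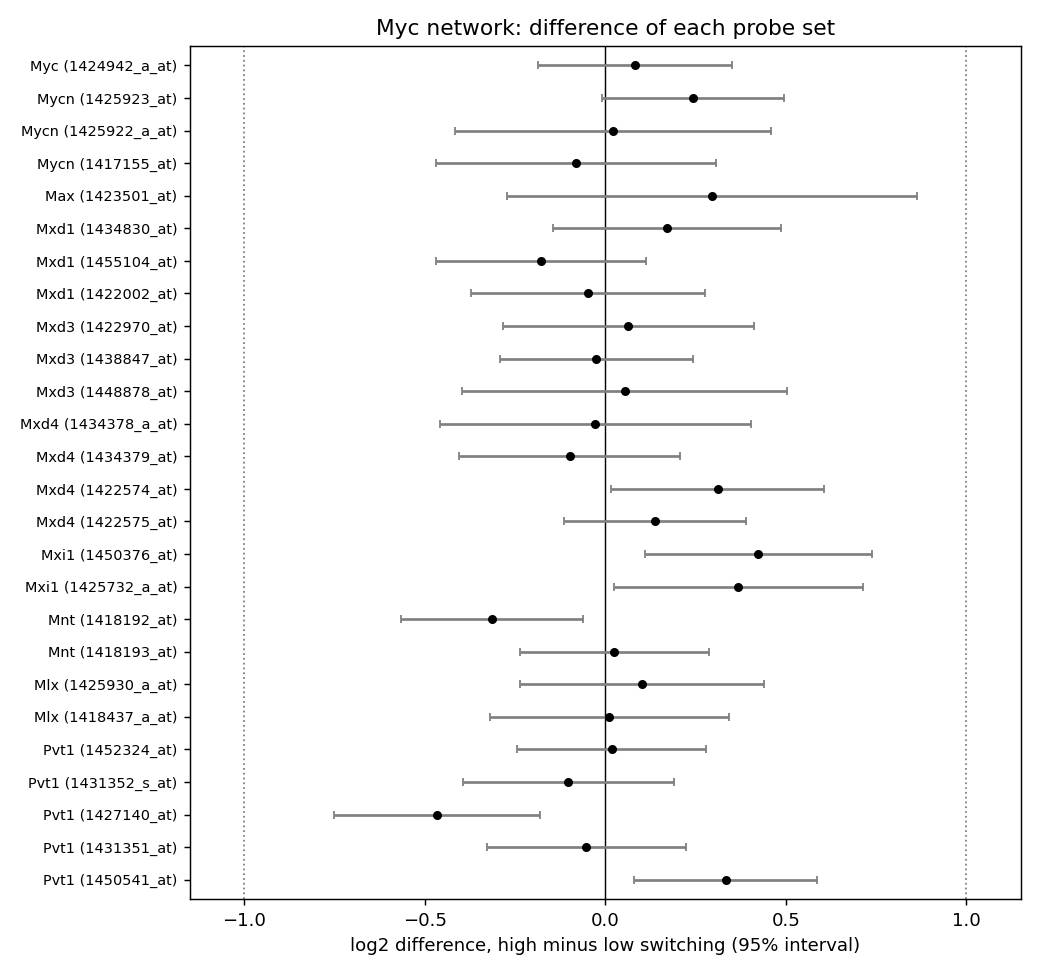
Log2 difference, high minus low switching (x axis), of each of the 26 probe sets (rows), with points for limma estimates and bars for 95% intervals. Dotted lines mark a 2-fold difference either way; every interval lies between them, the lowest bound being -0.75 (Pvt1) and the highest 0.86 (Max).

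The genes around Myc on chromosome 15 were described in the order of the RefSeq gene table. Of 16 measured neighbours, 8 on each side and Pvt1 among them, limma called 0 (2 at an unadjusted p under 0.05), with differences between -0.21 and 0.30. Over all genes, limma called 4.82%, and 22.9% had an unadjusted p under 0.05. Of the 16, 13 (81.2%) were above 0, with a median of 0.11, against 51.9% and a median of 0.01 over all genes. The share above 0 was 58.0% among genes with a mean under 6. It was 44.8% among genes with a mean of at least 7, the level of 6 of the 16. Trib1, a pseudokinase gene, read 9.72 and 9.59 in H23 and H27, against 9.31 and 9.41 in L25 and L27, and had the largest positive difference (0.30, adjusted p = 0.233). Sqle, an enzyme of sterol synthesis, had 0.27, Nsmce2 0.14, Washc5 0.13 and Lratd2 -0.21. The other neighbours apart from Pvt1 (Zfp572, 4933412E24Rik, 4930402D18Rik, Macroh2a3, Gm20740, 4930449C09Rik, 1700065I16Rik, Gsdmc2, Gsdmcl1 and Gsdmcl2) were dim, these 10 of the 16 having a mean under 6.

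The genes whose values over the 4 arrays were most like those of Myc were Trip4, Atp6v1g1, Ezh1, Ndufa3 and Scaper. Their centred log2 values differed from those of Myc by at most 0.011 to 0.015 on any array. A profile within 0.1 of that of Myc was shown by 856 of 13331 probe sets with a mean of at least 7, so the likeness is mainly that of values with little change.

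Genes that act with or on the network were taken from 9 lists of 155 names, of which 143 had a probe set of their own and 10 passed, 4 higher and 6 lower in high switching subclones. This is 6.99% against 4.82% of all 18194 genes, with the probe set of the highest mean standing for each gene. Among all probe sets with a mean of at least 7, 7.21% passed, and the median levels of the 9 lists lay between 7.82 and 11.9. Over all 18194 genes, the classes did not overlap for 51.4%, and 22.9% had an unadjusted p under 0.05. Of the 8 other network and E-box factors 0 passed (1 at an unadjusted p under 0.05, limma), with a median of -0.03 against the median of 0.01 over all probe sets. Mlxip, the MondoA partner of Mlx, had 8.54 and 8.84 in H23 and H27, against 8.94 and 9.08 in L25 and L27 (difference -0.32, adjusted p = 0.306). Mga, which binds Max in a repressive complex, had a difference of -0.02, Mycl 0.10, Bmyc -0.05 and the glucose-responsive factor Mlxipl -0.08, the last 3 at levels between 4.47 and 5.97. Of 17 cofactors 0 passed (4 at an unadjusted p under 0.05), with a median of -0.16; the scaffold Trrap had a difference of 0.10 and the Myc partner Zbtb17 (Miz-1) 0.02. One further probe set of Sin3b, a corepressor that Mxd proteins recruit, passed as higher (0.71, adjusted p = 0.0461), while the one standing for the gene had 0.28.

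Among genes listed under turnover of the Myc protein, 6 of 20 passed (30.0%), 5 lower and 1 higher in high switching subclones. The median of the 20 was -0.15. The list pools genes of opposite action, such as ubiquitin ligases and deubiquitinases, so this median gives no direction for Myc stability. The share that passed was 4.82% over all genes and 7.21% over probe sets with a mean of at least 7. At an unadjusted p under 0.05 (limma) there were 9 of the 20, against 22.9% of all genes. The list was chosen with earlier results of these data known. Skp2, a ubiquitin ligase subunit that targets Myc among other proteins, had 8.62 and 8.40 in H23 and H27, against 9.34 and 9.27 in L25 and L27. Its classes lay well apart, the difference was -0.80 ± 0.12 (adjusted p = 0.0304), and Skp2 fell on 5 of 6 probe sets. Fbxo28, another ubiquitin ligase subunit, fell by 1.09 on the log2 scale (8.42 and 8.18 in H23 and H27, against 9.46 and 9.31 in L25 and L27). Fbxo28 passed on 2 of 3 probe sets, and the remaining one had -0.61 (adjusted p = 0.105). The ubiquitin ligase Stub1 (-0.93), the deubiquitinase Usp37 (-0.73) and Cip2a, an inhibitor of the phosphatase PP2A (-0.63), also fell. Stub1 passed on both probe sets. Usp37 and Cip2a each passed on 1 of 2, and their other probe sets had -0.40 and -0.53. Btrc, an F-box protein, rose by 0.74 (7.75 and 7.70 in H23 and H27, against 6.84 and 7.14 in L25 and L27). Btrc passed on 1 of 5 probe sets, and the others had differences from -0.19 to 0.13. Fbxw7, the best known Myc ubiquitin ligase subunit, had a difference of 0.07 (adjusted p = 0.847). Of 17 regulators of Myc transcription, 8 had an unadjusted p under 0.05 (limma). Their median was 0.06, and 1 of the 17 passed (5.88%). It was Fubp1, which binds a far upstream element of the Myc gene, and which passed on 1 of its 4 probe sets. That probe set had 9.23 and 9.19 in H23 and H27, against 8.51 and 8.08 in L25 and L27 (0.92 ± 0.16, adjusted p = 0.0404). The others had differences from 0.08 to 0.73. These are transcript levels and say nothing of the Myc protein.

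Genes that Myc is known to activate showed few differences past the threshold. Of 28 genes of ribosome assembly 0 passed by limma (6 at an unadjusted p under 0.05), with a median of -0.11. Nop56, a nucleolar protein, had a difference of -0.04. For nucleolin (Ncl) 4 of 5 probe sets gave differences from -0.20 to 0.11, while 1415772_at read 9.37 and 9.28 in H23 and H27, against 10.55 and 10.27 in L25 and L27, and passed as lower (-1.08 ± 0.13, adjusted p = 0.0179). Nolc1 passed as higher on 1 of 3 probe sets (0.67). Of 21 metabolic genes, 8 had an unadjusted p under 0.05 by limma and 1 passed (4.76%, against 4.82% of all genes), with a median of -0.08. It was Ppat, the first enzyme of purine synthesis, which passed on 1 of 3 probe sets. That probe set had 9.68 and 9.50 in H23 and H27, against 10.45 and 10.35 in L25 and L27 (-0.81 ± 0.12, adjusted p = 0.0265). The others had -0.46 and 0.17. Differences of ornithine decarboxylase (Odc1), spermidine synthase (Srm), Cad and lactate dehydrogenase (Ldha) were -0.08, -0.09, -0.11 and -0.34, with adjusted p-values from 0.165 to 0.826. The largest positive differences of the metabolic list were those of Mthfd2, of mitochondrial folate metabolism (0.63), the lactate transporter Slc16a1 (0.51) and hexokinase 2 (Hk2, 0.44), with adjusted p-values from 0.108 to 0.147. Single further probe sets of Gart (-0.76) and Umps (-0.83), and both remaining ones of the transferrin receptor Tfrc (-0.71 and -0.73), passed as lower. Of 13 genes of the cell cycle and translation 0 passed (4 at an unadjusted p under 0.05), with a median of -0.12. Cdk4 had -0.16. For Ccnd2, all 7 probe sets were lower in high switching subclones, with differences from -0.88 to -0.31, and 1 of them passed (-0.88). Over these 62 activated genes, 42 differences were below 0 (67.7%) and 20 above, with a median of -0.09. Among all genes with a mean of at least 7, the level of 59 of these 62, 55.2% were below 0, with a median of -0.05.

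The E-box was found in the promoters of 6 of 23 ribosome assembly genes with an entry (26.1%), 7 of 21 metabolic genes (33.3%) and 5 of 14 cell cycle and translation genes (35.7%). In all genes with an entry the share was 8.09%. Base composition of the promoters was not matched.

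Among 13 genes known to be lowered by Myc, 4 had an unadjusted p under 0.05 (limma). Of the 13, 2 passed as higher and 0 as lower, with a median of 0.11. This is 15.4%, against 4.82% of all genes and 7.21% of probe sets with a mean of at least 7. This list too was chosen with earlier results of these data known. The cell cycle inhibitor Cdkn1a had 8.70 and 8.03 in H23 and H27, against 6.60 and 6.93 in L25 and L27 (1.60 ± 0.24, adjusted p = 0.0278), and both of its probe sets passed. Gadd45a, a growth arrest gene, had 9.69 and 9.56 in H23 and H27, against 8.54 and 8.36 in L25 and L27 (1.18 ± 0.12, adjusted p = 0.0114). Both are also targets of p53. Of 6 target genes of Mlx and its Mondo partners 0 passed (1 at an unadjusted p under 0.05), with a median of 0.19. Txnip, an inhibitor of glucose uptake that MondoA and Mlx induce, had 12.23 and 12.54 in H23 and H27, against 11.84 and 11.91 in L25 and L27 (0.51, adjusted p = 0.115). Its other probe set (12.01 on average in high, 11.29 in low switching subclones) passed as higher (0.73, adjusted p = 0.0465).

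**Figure D4:**
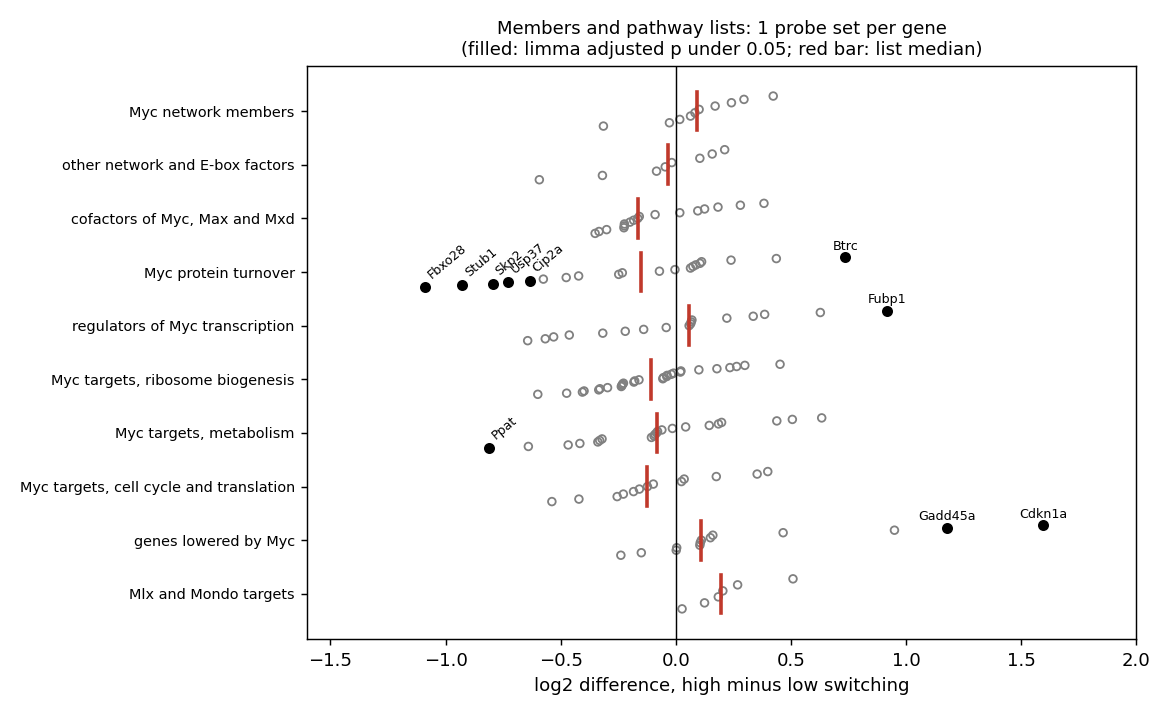
Log2 difference, high minus low switching (x axis), for the 10 network genes and each gene of the 9 pathway lists (rows), with 1 probe set for each gene. Filled points passed limma at an adjusted p under 0.05 and are named, open points did not, and red bars are list medians; no network gene is filled, and 10 pathway genes are.

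When any 1 array was left out, the calls of Skp2, Stub1, Usp37, Cip2a, Btrc, Fubp1 and Ppat ended. That of Fbxo28 held only without H23 and that of Cdkn1a only without H27, while that of Gadd45a ended only without L27 (adjusted p = 0.0523). Blocking on the level of the hybridization controls ended all 10 calls, with adjusted p-values from 0.0600 to 0.118. The differences stayed exactly as large, because each level holds 1 array of each class, while 1 residual degree of freedom was left in place of 2 and the SE was 0.541 to 1.10 times that without the block. The smallest two-sided p of an exact permutation test is 0.333 with 2 arrays in each class, so these calls draw on variance pooled over all probe sets.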

How the data were processed

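The authors deposited 1 intensity per probe set on a linear scale for 4 Affymetrix arrays, and the submitters' processing notes name RMA with no version; this method makes differences of dim probe sets smaller. The 64 control probe sets among 45101 were not tested, and the deposited intensities were transformed to log2. Names come from the platform annotation of 2016, in which 34945 probe sets had 1 symbol, 932 several and 9160 none; probe sets with several or none were tested and not named. Of those with 1 symbol, 34741 matched the gene table of GRCm38.p6, used for names and gene order. The authors' build was not given in the sources used here.

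High minus low switching was fitted in R 4.3.3 by limma 3.58.1, with lmFit and eBayes, two-sided and unfiltered. P-values were adjusted over the 45037 probe sets by Benjamini-Hochberg. Members, lists and alternatives were chosen with earlier results of these data known. Named were every member, the 16 neighbours of Myc, up to 6 genes past the threshold in each list, a fixed set of genes (1 not analysed here), and the 5 genes most like Myc. Mthfd2, Slc16a1, Hk2, Jchain, Sdc1, Cd79a, Cd68, Cd79b, Tnfrsf17, Itgam, Lum, Sin3b, Nolc1, Gart, Umps, Tfrc and Ccnd2, and the further probe sets given, were named after their values were seen. Alternatives were other variance models, normalizations and probe set filters, a block for the hybridization controls, and each array left out. The fit was also run on data simulated with independent noise from its own variance model. Such data cannot show dependence between subclones or array effects. Figures used matplotlib 3.10.9 in Python 3.11.15.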

Additional observations from a re-analysis of the deposited data

How the results depend on the processing

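The network had 0 probe sets past the threshold in every setting run. Of 284 alternative values for its probe sets, 261 kept their direction and 23 reversed, and those for 26 named genes of the lists kept direction and call in 235 of 298, lost the call in 47 and reversed in 16. Quantile normalization applied again gave differences of -0.0039 for Mycn 1425922_a_at, 0.020 for Mxd4 1434378_a_at and 0.032 for Mga, and cyclic loess gave -0.021, 0.016 and 0.025 for these and -0.020 for Mnt 1418193_at, all reversed. With the hybridization controls as a block, 152 probe sets passed (58 higher, 94 lower), against 1618, and 0 genes of the lists (0 higher, 0 lower), against 10. This block leaves every difference unchanged and takes 1 of 2 residual degrees of freedom. With 1 array left out, 308 to 582 probe sets passed (112 to 253 higher, 196 to 329 lower), as did 1 to 2 genes of the lists (1 to 2 higher, 0 to 1 lower). The lone array of a class was then assumed to vary like the other class. The call of Btrc also ended with a variance trend. Differences that reversed when 1 array was left out ranged as follows: Mycn 1417155_at -0.23 to 0.072, Mxd3 1422970_at -0.11 to 0.23, Mxd3 1448878_at -0.21 to 0.32, Mxd4 1434378_a_at -0.21 to 0.16, Mlx 1425930_a_at -0.045 to 0.25, Mlx 1418437_a_at -0.14 to 0.16, Pvt1 1431351_at -0.13 to 0.028, Bmyc -0.13 to 0.041, Mga -0.21 to 0.18, Zbtb17 -0.020 to 0.055, Mycn 1425922_a_at -0.21 to 0.25, Mxd1 1422002_at -0.19 to 0.095, Mxd3 1438847_at -0.080 to 0.031, Pvt1 1452324_at -0.022 to 0.057, Mlxipl -0.39 to 0.22, Trrap -0.012 to 0.20, Fbxw7 -0.061 to 0.21, Nop56 -0.17 to 0.094, Srm -0.23 to 0.047, Mnt 1418193_at -0.021 to 0.071, Odc1 -0.19 to 0.036. Causes were not tested. No paired analysis was made because the labels state no pairing between subclones of the 2 classes. Depth does not apply to arrays; dim probe sets, such as the 5 of the network with a mean under 6, limit what can be read.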
